A study of Mus musculus with 6 samples.

Results

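The genes coding for the proteins of the cytosolic ribosome were followed in mouse RENCA cells, a renal adenocarcinoma line, with and without overexpression of AQP1, a water channel of the plasma membrane. Members were chosen by symbol alone: protein-coding genes named Rpl or Rps with a number, and Rplp0, Rplp1, Rplp2 and Rpsa, without the Rps6k kinases. The rule found 84 of 78298 genes, 51 of the large subunit and 33 of the small one, on 19 chromosomes with 4 on the X chromosome. Of the 6 libraries, labelled as 1 batch, 3 came from cells carrying an Aqp1 lentivirus (oe-AQP1, n = 3), in which the ubiquitin C promoter drives the mouse Aqp1 coding sequence. The other 3 came from cells carrying the matching empty vector (oe-NC, n = 3). Both groups therefore shared the vector backbone, the resistance cassette and 14 days of selection in 2 µg/mL puromycin, and the labels give 2 weeks for every sample. Nothing in the labels says that replicates of a group came from separate transductions, so the p-values measure the spread between these libraries, which may be technical.

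Each ribosome holds, with few exceptions, 1 copy of every ribosomal protein, and the small subunit decodes the mRNA while the large subunit joins the amino acids. The mRNAs of these proteins belong to the TOP class, which starts with a C followed by an unbroken pyrimidine tract. Their translation is switched together by the kinase complex mTORC1 and by the tract-binding protein LARP1, so in proliferating cells mRNA level and protein output can differ. Mammalian genomes also carry many processed copies of these mRNAs, most of them pseudogenes without introns, and short reads from a gene and an identical copy cannot be told apart.

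The pyrimidine tract could be read at the annotated starts. RefSeq's table of starts (GRCm38.p6) held 63 of the 84 members, and a window of 30 bases, 15 before the start and 15 from it on, was searched. An unbroken run of at least 8 C or T was found on the gene's strand in 25 of the 63 (39.7%), against 11.9% of 27025 genes. On the opposite strand such a run was found in 3.17% of the members and 12.9% of all genes. The letters CTTTCC, which lie inside a pyrimidine run by their nature, were found in 9 members (14.3%) and 1.39% of all genes on the gene's strand, and in 0 members and 1.21% of all genes on the other. The windows of members described below are shown because their starts differ, with the longest pyrimidine run in capitals: Rpl35 lies at chr2:39005117-39005146 (minus strand), Rps24 at chr14:24490663-24490692 (plus), Rps27 at chr3:90213634-90213663 (minus), Rplp2 at chr7:141447636-141447665 (plus), Rplp0 at chr5:115559452-115559481 (plus) and Rpl3l at chr17:24727811-24727840 (plus).
Rpl35: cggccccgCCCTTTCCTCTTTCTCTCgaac
Rps24: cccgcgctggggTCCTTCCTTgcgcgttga
Rps27: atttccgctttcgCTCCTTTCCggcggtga
Rplp2: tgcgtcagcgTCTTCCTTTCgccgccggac
Rplp0: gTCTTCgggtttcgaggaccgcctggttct
Rpl3l: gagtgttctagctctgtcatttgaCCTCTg
Rpl35 had a run of 18 pyrimidines, while Rplp0 and the muscle paralog Rpl3l had runs of 5. Of the other members described below, Rpl12 had a longest run of 7, Rpl7l1 of 2, Rpl10 of 3, Rpsa of 5 and Rps4x of 4. A window placed off the true start would miss the tract, so its absence here says only that these letters are not in this window.

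The libraries held 18385714 to 21920899 counts. Aqp1 itself reached 381 to 390 CPM (counts scaled to library size) in the oe-AQP1 libraries, against 1.37 to 2.11 CPM in the controls, as the labels have it. The renal markers Pax8, Krt8, Krt18 and Cdh16 were present in every library and Epcam was at 0; summed, the 6 markers of this list were at 786 to 813 CPM under oe-AQP1, against 947 to 1043 CPM in the controls, with Krt8 (log2FC -0.41, FDR = 6.43e-05), Krt18 (-0.27, FDR = 0.000567) and Cdh16 (-0.63, FDR = 4.63e-06) lower by limma-voom and none higher. Of markers of other cells, Adgre1, Cd2 and Kdr were at 0 in every library and Ptprc did not exceed 3 counts. Others of the same lists had counts in every library, such as Cd68 with 576 to 777 and Pecam1 with 13 to 35. The 3 endothelial markers summed to 0.911 to 1.6 CPM under oe-AQP1, against 0.761 to 1.45 CPM in the controls. The 3 lymphocyte markers summed to 0.0912 to 0.101 CPM against 0.0 to 0.28 CPM. Summed over 7 macrophage markers, the level was 59.3 to 62.4 CPM under oe-AQP1, against 68.8 to 70.9 CPM in the controls, with Csf1r and Lyz2 lower and none higher. The 4 fibroblast markers summed to 12.6 to 13.8 CPM against 18.0 to 26.4 CPM, with Col1a1 lower. Mitochondrially encoded genes took from 1.71% to 1.76% under oe-AQP1, and between 2.37% and 2.99% in control libraries. The part of these in the results below was not tested. The library oe-NC 1 stood apart from the other control libraries: its counts differed from theirs by a mean chi-square of 9.54 and 11.1 per gene, against 1.71 to 2.04 for every other pair within a group. Values without it are given for most genes described below where it changed a call, a direction or a size.

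Between oe-AQP1 and oe-NC most ribosomal protein mRNAs differed little. Of the 81 members that passed the filter on low counts, 6 were higher in oe-AQP1 (7.41%) and 10 were lower (12.3%) at FDR < 0.05 by limma-voom, where 16.0% of the 15522 genes tested were higher and 16.6% were lower. No member was a DEG by the added threshold of |log2FC| > 1, which 5.23% of all genes passed, and none was past this fold at an unadjusted p under 0.05 or by DESeq2 or edgeR. The median log2FC was -0.02 over the members and 0.00 over all genes, and the median size of the change, without its sign, was 0.07 and 0.18. These sizes were not compared among genes of like level. The 3 libraries of each group did not overlap in CPM for 7 members that were higher and 12 that were lower in oe-AQP1, where 23.5% and 23.8% of all genes separated in these directions. Large and small subunit genes gave similar counts: 4 higher and 7 lower of 49 for the large subunit, 2 higher and 3 lower of 32 for the small one, each with a median log2FC of -0.02. These counts depended on single libraries. Without oe-NC 1 there were 8 higher and 45 lower members, with a median log2FC of -0.09 and a background of 19.4% higher and 20.7% lower. With all libraries but with sample quality weights there were 8 higher and 30 lower, against 20.1% and 21.4% of all genes. Without oe-AQP1 1 there were 3 higher and 5 lower, against 12.1% and 11.6% of all genes. Without oe-AQP1 2 there were 3 higher and 7 lower, against 11.7% and 11.0%, and without oe-AQP1 3 there were 2 higher and 6 lower, against 11.8% and 11.1%. Of the 16 members called, 7 kept FDR < 0.05 whichever single library was left out: Rpl12, Rps24, Rplp0, Rpl10, Rpsa, Rps4x and Rpl4.

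**Figure D1:**
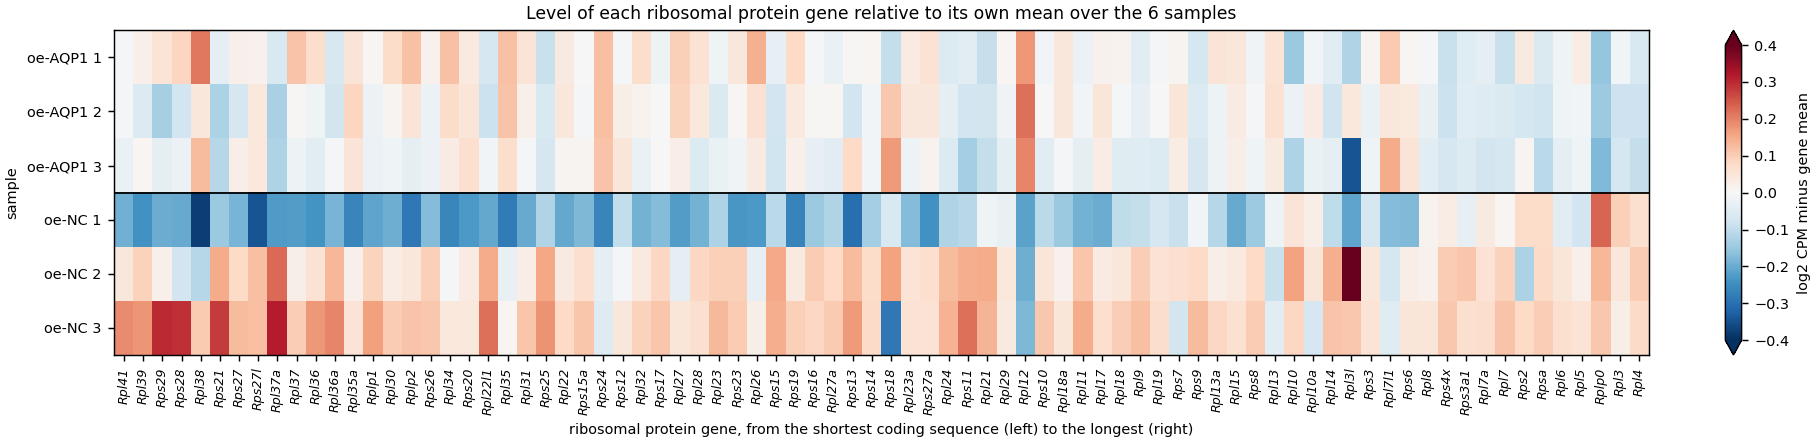
Level of 80 ribosomal protein genes (columns, ordered by coding length) in the 6 libraries (rows), as log2 CPM minus the gene's own mean, with the colour scale ending at 0.4 in either direction. The row of oe-NC 1 is blue for most genes, above all short ones, and 62 of all 81 genes tested have their lowest level there.

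The pattern in oe-NC 1 covered most of the members. Its level was below the mean of oe-NC 2 and oe-NC 3 for 75 of 81 members, with a median difference of -0.24 in log2 CPM and a range from -0.51 to 0.11. It was the lowest of all 6 libraries for 62 members, whereas 24.6% of all genes tested had their lowest level there. The difference went with coding length. For the 27 shortest coding sequences (75 to 396 bases) its median was -0.30, for the middle 27 (405 to 576 bases) -0.24 and for the 27 longest (582 to 1257 bases) -0.10. Across the 81 members Pearson's r with log2 coding length was 0.68 and Spearman's rho 0.79, as a description of values that share their libraries. Other protein-coding genes in the same length bands had medians of -0.17, -0.08 and 0.00, and 0.06 above 1257 bases, so the members' median lay below that of the other genes in each band. The part of RNA quality or library preparation in this was not tested. In the fold changes the length pattern was weak: rho was -0.29 with all libraries and 0.00 without oe-NC 1. With all libraries, 9 of the 10 lower members, and 3 of the 6 higher ones, were among the 27 longest. The median log2FC of the shortest, middle and longest 27 was then 0.00, -0.01 and -0.05. Without oe-NC 1 these medians were -0.09, -0.09 and -0.08, so the shorter members were lower to a like degree.

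**Figure D2:**
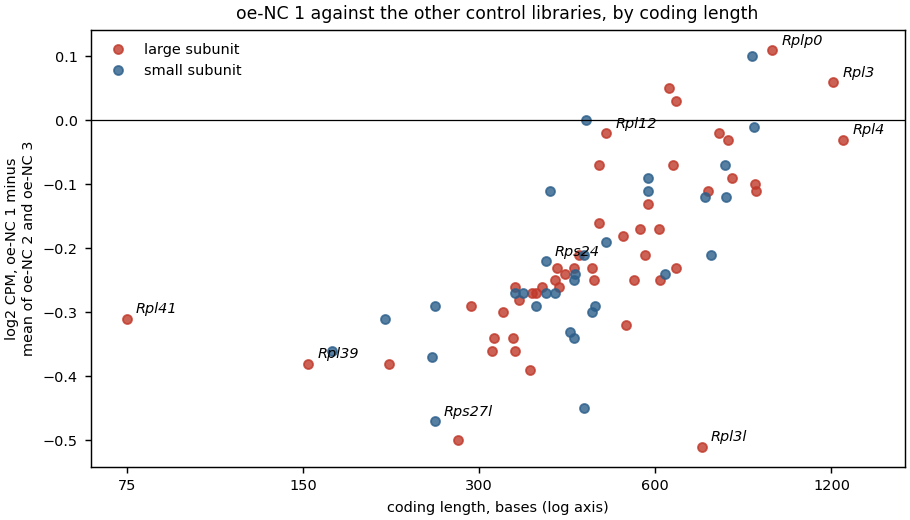
Level of 80 members in oe-NC 1 minus the mean of oe-NC 2 and oe-NC 3 (log2 CPM) against its coding length on a log axis, by subunit. The 27 shortest members have a median of -0.30 and the 27 longest one of -0.10, with the low-count gene Rpl3l at -0.51 as an exception among the longer ones.

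As a sum, members took 4.09%, 4.06% and 4.02% of all counts in oe-AQP1 replicates 1 to 3, and 3.75%, 4.20% and 4.29% in oe-NC. The control values lay on both sides of the oe-AQP1 values only through oe-NC 1, since the other 2 controls were above all oe-AQP1 libraries. The difference of the means, oe-AQP1 minus oe-NC, was -0.0223 percentage points with all libraries and -0.188 without oe-NC 1. The means were 4.06% ± 0.0347 and 4.08% ± 0.29 (SD, n = 3 each), and an exact two-sided permutation test gave p = 1.0, where 0.1 is the smallest p that 3 against 3 samples allow. With counts on near-identical copies the shares were 5.06% to 5.15% under oe-AQP1, against 4.77% to 5.45% in the controls (exact permutation p = 0.8). The balance of the subunits also overlapped: on own rows, summed small over summed large subunit counts was 0.538, 0.539 and 0.545 in oe-AQP1 and 0.526, 0.543 and 0.538 in oe-NC (exact permutation p = 0.5 on the log2 scale). With copies this ratio was 0.619, 0.621 and 0.624 in oe-AQP1 and 0.61, 0.625 and 0.62 in oe-NC. With so few libraries a change of the summed share within the spread of the controls would not have been detectable.

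**Figure D3:**
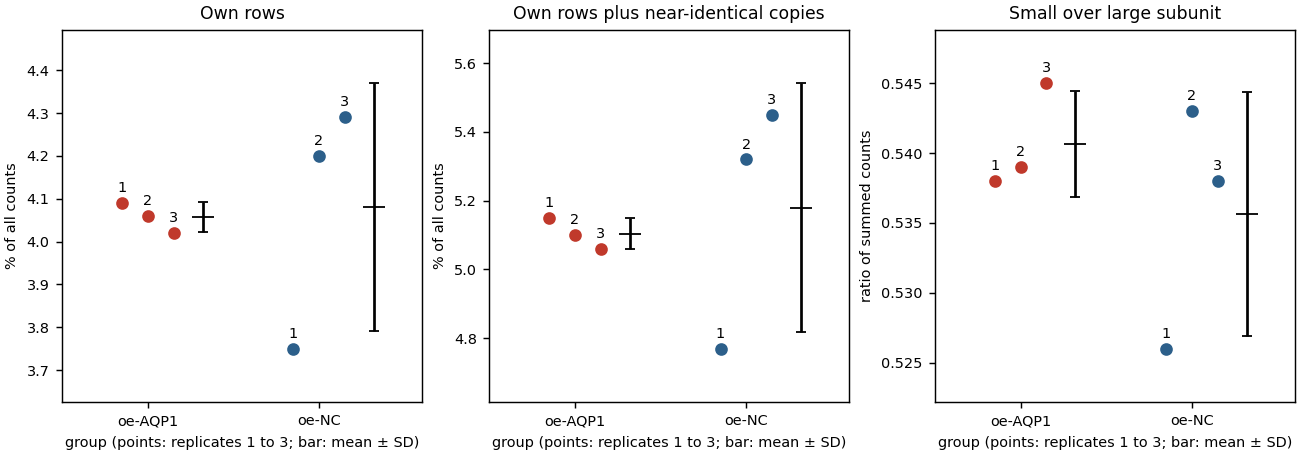
Share of all counts taken by the ribosomal protein genes (left), the same with their near-identical copies (middle) and the ratio of small to large subunit counts (right); points are libraries numbered by replicate and bars are mean ± SD, and no axis starts at 0. The points of oe-NC lie on both sides of those of oe-AQP1 in the left and middle panels and overlap them in the right one, and oe-NC 1 is lowest in each.

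The largest increases in oe-AQP1 are described first. The largest increase on a gene's own row was that of Rpl12, a protein at the base of the stalk on the large subunit (chr2:32851496-32855357 in GRCm39). Rpl12 was at 212, 219 and 215 CPM in oe-AQP1 and at 162, 164 and 166 CPM in oe-NC, with a log2FC of 0.39 ± 0.04 (SE) and FDR = 1.79e-05. The groups were well apart, but this row holds only 19.2% of the counts on Rpl12 and its copies, and the sum did not differ, as described with the copies. Rps24, a small subunit protein needed for processing the 18S rRNA precursor and mutated in some Diamond-Blackfan anemia families, lies at chr14:24537193-24547028. It was at 1517, 1516 and 1510 CPM in oe-AQP1 and at 1161, 1361 and 1345 CPM in oe-NC (log2FC 0.24 ± 0.05, FDR = 0.00699). The control libraries were all below, oe-NC 1 farthest, and without that library the log2FC was 0.16 (FDR = 7.32e-10). Nearly all counts of its family, 99.7%, lay on its own row.

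Rpl35, a protein near the exit of the peptide tunnel, was at 632, 630 and 612 CPM in oe-AQP1 and at 480, 571 and 586 CPM in oe-NC (log2FC 0.20 ± 0.06, FDR = 0.0373). Without oe-NC 1 its log2FC fell to 0.11, and leaving out any one oe-AQP1 library raised its FDR past the threshold, to at most 0.115. Rpl7l1, a paralog of Rpl7 found in ribosome precursors rather than mature ribosomes, was at 228, 219 and 235 CPM against 188, 202 and 205 CPM (log2FC 0.19 ± 0.05, FDR = 0.00822); without oe-AQP1 3 its FDR was 0.0514. In these 2 genes the groups did not overlap, yet the nearest libraries were close. Rpl13 was also called as higher, with a log2FC of 0.10, a call that was lost, with FDR up to 0.127, without any one library other than oe-NC 1.

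The 3 proteins of the P stalk, which recruits the elongation factors to the large subunit, did not move together. Rplp0, the scaffold on which pairs of P1 and P2 assemble, lies at chr5:115694515-115701793 and showed the largest decrease. It was at 822, 827 and 810 CPM in oe-AQP1 and at 1076, 1003 and 986 CPM in oe-NC (log2FC -0.32 ± 0.04, FDR = 0.000128). All control libraries were above all oe-AQP1 libraries. Rplp1 was at 629, 617 and 616 CPM against 541, 667 and 702 CPM, and Rplp2 at 481, 459 and 431 CPM against 363, 457 and 479 CPM. Their groups overlapped, with log2FC -0.03 ± 0.08 (FDR = 0.818) and 0.09 ± 0.09 (FDR = 0.496). Without oe-NC 1, Rplp1 had a log2FC of -0.14 with FDR = 1.03e-05, and Rplp2 of -0.04 with FDR = 0.375. A difference between Rplp0 and its partners was not tested.

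The next 4 decreases by size came from both subunits. Rpl10, a late-joining large subunit protein next to the catalytic centre, was at 168, 183 and 171 CPM in oe-AQP1 and at 193, 208 and 197 CPM in oe-NC (log2FC -0.20 ± 0.05, FDR = 0.00772). Rpl21 was at 391, 396 and 390 CPM against 412, 462 and 458 CPM (log2FC -0.18 ± 0.05, FDR = 0.0137), and its FDR reached up to 0.0597 without oe-AQP1 1, oe-AQP1 3 or oe-NC 2. Rpl21 has 58 near-identical copies in the table, more than the other genes described here. In both genes the groups were separate on their own rows, which held 29.6% of the family's counts for Rpl10 and 57.3% for Rpl21. Summed with copies, Rpl10 had a log2FC of -0.25 (FDR = 0.00104) and Rpl21 of -0.16 (FDR = 0.0347). The summed call for Rpl21 was lost, with FDR up to 0.122, without any one library other than oe-NC 1.

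Rpsa, a small subunit protein also known as the laminin receptor, was at 946, 931 and 913 CPM in oe-AQP1 and at 1035, 1038 and 1054 CPM in oe-NC (log2FC -0.16 ± 0.03, FDR = 0.00185). Rps4x, the X-linked S4 protein, was at 427, 428 and 434 CPM against 464, 488 and 490 CPM (log2FC -0.16 ± 0.03, FDR = 0.00492). Copies took almost none of the counts of these 2 genes, and each kept its call whichever library was left out. The other called decreases were Rpl4 (log2FC -0.16), Rpl7 (-0.14), Rps9 (-0.13), Rpl3 (-0.11) and Rpl7a (-0.11), all with coding sequences of 582 bases or more. Of these only Rpl4 kept its call whichever library was left out.

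**Figure D4:**
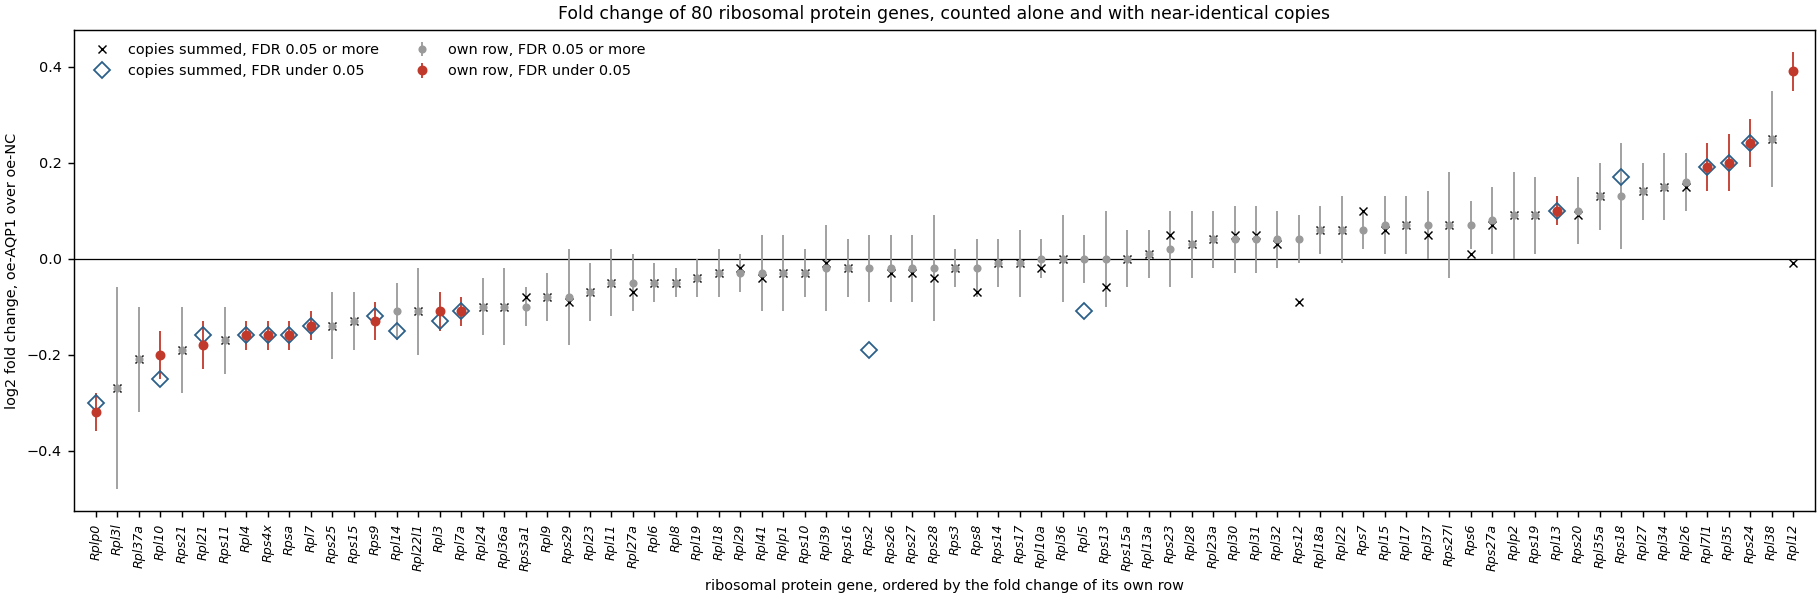
log2FC of 80 ribosomal protein genes, oe-AQP1 over oe-NC, from the gene's own row (circles, bars are SE, red at FDR < 0.05) and from the sum of the gene and its near-identical copies (diamonds at FDR < 0.05, crosses otherwise). All own-row values lie between -0.32 and 0.39, and the 2 estimates part mainly for Rpl12, Rps2, Rps12 and Rpl5.

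Copies decided where the counts of several members lay. Among the annotated transcripts, 77 members had 640 genes that matched at least 80% of the coding sequence with an identity of at least 95%, and 393 of these carried counts. In the table, 72 of the 84 members had at least 1 value that was not a whole number, as can arise when reads are divided among genes. Of the 81 members tested, 30 held under 90% of the counts of their family on their own row and 9 held under 50%. The lowest were Rps2 with 0.887%, Rps18 with 4.28%, Rpl5 with 10.3%, Rps12 with 12.7% and Rpl12 with 19.2%. Whether the cells transcribe such a copy, or the reads came from the gene and were placed on the copy, cannot be told apart for the identical ones.

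**Figure D5:**
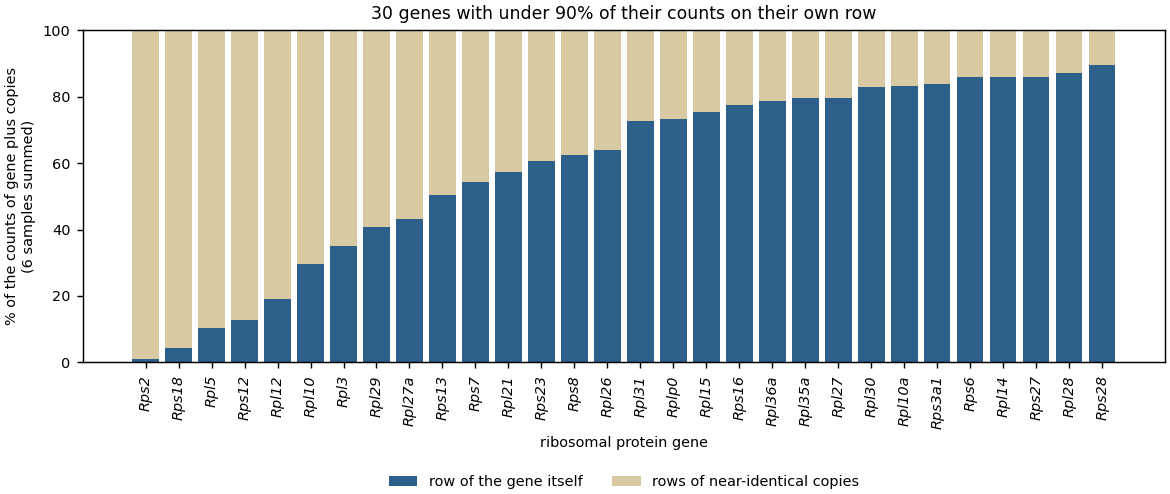
Counts of the gene itself (blue) and of its near-identical copies (tan) as a percentage of both, summed over the 6 samples, for the 30 members with under 90% on their own row. Rps2 is at 0.887% and Rps28 just under 90%.

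The sequences of 2 families show how little there is to separate a copy. For Rpl12 all 495 coding bases are shared with ENSMUSG00000121784, an lncRNA gene at chr10:29574731-29575389. For Rps18, 4 of 456 bases differ from Rps18-ps6 at chr13:97896580-97897140, which the table lists as protein coding. Coding bases are counted from 1 at the A of the start codon, and capitals mark the bases that differ. Bases 1 to 60 are given for Rpl12 and bases 312 to 371, which hold 2 of the differences, for Rps18.
Rpl12: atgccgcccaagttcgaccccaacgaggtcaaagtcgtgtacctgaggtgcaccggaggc
ENSMUSG00000121784: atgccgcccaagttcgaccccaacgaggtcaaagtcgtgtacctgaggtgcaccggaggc
Rps18: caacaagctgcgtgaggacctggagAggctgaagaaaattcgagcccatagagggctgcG
Rps18-ps6: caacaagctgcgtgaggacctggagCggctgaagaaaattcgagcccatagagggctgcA
The Rpl12 copy was at 783, 759 and 761 CPM in oe-AQP1 and at 781, 856 and 850 CPM in oe-NC (log2FC -0.11 ± 0.04, FDR = 0.0589), and without oe-NC 1 it was lower (log2FC -0.15, FDR = 1.8e-07). It thus carried more counts than Rpl12 itself and leaned the other way. Summed with all copies, Rpl12 was at 996, 980 and 978 CPM in oe-AQP1 and at 945, 1022 and 1017 CPM in oe-NC. The sums overlapped, with a log2FC of -0.01 ± 0.04 and FDR = 0.805, and without oe-NC 1 the log2FC was -0.05 with FDR = 0.00282, so the largest increase among the members was not found in its family.

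In the fit with copies summed, which was added after the data had been seen, 6 members were higher and 13 lower, with 16.2% of all genes higher and 16.8% lower. Without oe-NC 1 this fit gave 8 higher and 54 lower members, against 19.5% and 21.3% of all genes. Of the 16 calls on own rows 15 were found again, and 4 were new. The sum for Rps2, a protein at the mRNA entry of the small subunit, was 2332, 2351 and 2283 CPM in oe-AQP1 and 2595, 2658 and 2691 CPM in oe-NC (log2FC -0.19 ± 0.03, FDR = 0.000483), and it kept its call whichever library was left out. Its own row, at 20.1 to 23.2 CPM, had a log2FC of -0.02 (FDR = 0.84). The sum for Rps18, a protein of the head of the small subunit, was 890, 861 and 877 CPM against 692, 804 and 838 CPM (log2FC 0.17 ± 0.06, FDR = 0.0462). Without oe-NC 1 the log2FC for the sum of Rps18 was 0.09 (FDR = 0.000246), and without oe-NC 2 or any one oe-AQP1 library the call was lost, with FDR up to 0.14. The sums of both genes were separate between the groups, while their own rows overlapped.

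Rpl5 and Rpl11 form, with the 5S rRNA, the particle that binds MDM2 when ribosome assembly is disturbed. Rpl5 on its own row was at 76.6, 74.4 and 74.0 CPM in oe-AQP1 and at 71.1, 76.0 and 77.9 CPM in oe-NC (log2FC 0.00 ± 0.05, FDR = 0.995). With its copies it was at 704, 711 and 694 CPM against 720, 778 and 782 CPM (log2FC -0.11 ± 0.04, FDR = 0.0453), a call that was lost, with FDR up to 0.163, without any one library other than oe-NC 1. Without oe-NC 1, Rpl5 with its copies had a log2FC of -0.15 (FDR = 2.57e-08). Most of its counts lay on ENSMUSG00000121777, identical over the whole coding sequence, on chromosome 7. Rpl11 was at 596, 601 and 590 CPM against 531, 653 and 671 CPM (log2FC -0.05 ± 0.07, FDR = 0.674). The oe-AQP1 values lay between oe-NC 1 and the other controls, and without oe-NC 1 Rpl11 had a log2FC of -0.15 with FDR = 7.19e-07. The fourth new call was that of Rpl14, with a log2FC of -0.15 (FDR = 0.0206) summed and -0.11 (FDR = 0.201) alone. Without oe-NC 1 the summed value was -0.20 (FDR = 1.71e-09) and the value alone -0.18 (FDR = 5.2e-07), and without any one of the other 5 libraries the summed call was lost, with FDR up to 0.0838.

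Levels between genes are compared as CPM per kilobase of coding sequence, averaged over the 6 libraries. On own rows the 81 members ran from 3.5 to 13257 with a median of 949, and the 90th percentile was 5.01 times the 10th. With copies summed the median was 1102 and this ratio 2.74, so the members were closer in level once copies were counted. The highest were Rpl41 at 13257, Rps24 at 3594 and Rpl8 at 2250 CPM per kilobase. Rpl41 codes for a peptide from only 75 coding bases, and reads on its untranslated ends count toward this value. The lowest were Rpl3l at 3.5, Rps2 at 25.0 and Rps18 at 77.8, but with copies Rps2 was at 2827 and Rps18 at 1813. Rpl41 was at 985, 987 and 972 CPM in oe-AQP1 and at 867, 1023 and 1131 CPM in oe-NC (log2FC -0.03 ± 0.08, FDR = 0.799), and without oe-NC 1 it was lower (log2FC -0.14, FDR = 0.000345). Rpl8 was at 1726, 1700 and 1685 CPM against 1751, 1754 and 1795 CPM (log2FC -0.05 ± 0.03, FDR = 0.17), separate between groups yet not past the threshold. It was past it without oe-NC 1 (log2FC -0.06, FDR = 0.000732), with sample quality weights and with no filter on low counts.

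Paralogs, which can replace a standard protein in some tissues, were compared with their partners in each group. Rpl10l and Rpl39l, known from male germ cells, had 0 counts in every library, and Rps4l had 1 count in oe-AQP1 2 and 0 elsewhere. Rpl3l, known from heart and skeletal muscle, was at 2.28, 2.55 and 1.95 CPM in oe-AQP1 and at 2.14, 3.56 and 2.67 CPM in oe-NC, while Rpl3 was at 424, 404 and 407 CPM against 457, 441 and 435 CPM. Rpl3l did not pass the test (log2FC -0.27 ± 0.21, FDR = 0.37), nor did it without oe-NC 1 (log2FC -0.44, FDR = 0.113). Rpl3 was lower (log2FC -0.11 ± 0.04, FDR = 0.0391) on a row with 35.0% of its family's counts. The FDR of Rpl3 lay past the threshold without oe-AQP1 1, oe-AQP1 2, oe-AQP1 3 or oe-NC 2. Rpl7 was at 995, 1016 and 1009 CPM against 1064, 1127 and 1144 CPM (log2FC -0.14 ± 0.03, FDR = 0.00992), a decrease where its paralog Rpl7l1 rose; without oe-AQP1 1 the call for Rpl7 was lost. A difference between the 2 changes was not tested.

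Rpl22 and Rps27 had paralogs of the same order of level. Rpl22l1 was at 154, 152 and 160 CPM in oe-AQP1 and at 140, 179 and 188 CPM in oe-NC, and Rpl22 at 130, 131 and 128 CPM against 110, 130 and 134 CPM. Neither passed the test (log2FC -0.11 ± 0.09, FDR = 0.392, and 0.06 ± 0.07, FDR = 0.52), and per kilobase Rpl22l1 was at 443 and Rpl22 at 331. Without oe-NC 1, Rpl22l1 had a log2FC of -0.24 (FDR = 2.76e-06) and Rpl22 of -0.03 (FDR = 0.51). Rps27l, a p53 target, was at 106, 108 and 108 CPM against 82.4, 114 and 114 CPM, and Rps27 at 205, 193 and 206 CPM against 178, 214 and 221 CPM. Both overlapped between groups (log2FC 0.07 ± 0.11, FDR = 0.653, and -0.02 ± 0.07, FDR = 0.877), and both had their lowest level in oe-NC 1. Without that library Rps27l turned to -0.09 (FDR = 0.0316) and Rps27 was at -0.12 (FDR = 0.0037). Rpl39, with Rpl39l silent, was at 138, 131 and 137 CPM against 115, 145 and 154 CPM (log2FC -0.02 ± 0.09, FDR = 0.895), and without oe-NC 1 it was lower (log2FC -0.15, FDR = 0.0012). The Rps27 pair can be told apart by reads, since 60 of 252 coding bases differ; the stretch from base 4 to 63 is shown with the 19 differences in it in capitals.
Rps27: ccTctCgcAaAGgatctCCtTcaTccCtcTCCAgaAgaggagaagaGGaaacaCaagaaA
Rps27l: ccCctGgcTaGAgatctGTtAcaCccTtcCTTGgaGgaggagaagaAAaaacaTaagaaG

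The list of Diamond-Blackfan anemia genes was a selection and left out Rpl35, described above. Of its 10 genes, which lead to this anemia when 1 copy is lost, 1 was higher (Rps24) and none was lower. This count was the same by limma-voom, DESeq2 and edgeR, and by limma-voom 16.0% of all genes were higher and 16.6% lower. Without oe-NC 1 there were 2 higher and 4 lower, against 19.4% and 20.7% of all genes. Without oe-NC 3 there were 2 higher, with the share of all genes not given here. Of the 4 genes of ribosomal proteins that the naming rule left out, Rack1, a scaffold on the small subunit, was lower: 972, 963 and 959 CPM in oe-AQP1 against 1057, 1036 and 1021 CPM in oe-NC (log2FC -0.11 ± 0.03, FDR = 0.0184). Rack1 was not called by DESeq2 or without any one of the oe-AQP1 libraries. Fau and Rpl36al did not pass the test.

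Lists of genes that work with or on the ribosome were read beside the members. By limma-voom with all libraries, their counts stand against the 16.0% of all genes that were higher and the 16.6% that were lower. Without oe-NC 1 these shares were 19.4% and 20.7%, and with sample quality weights 20.1% and 21.4%. Without 1 oe-AQP1 library they were 11.7% to 12.1% and 11.0% to 11.6%. Shares of all genes under the other settings are not given here. Of 16 other genes with TOP mRNAs, among them elongation and initiation factors, 10 were lower and none was higher by limma-voom. Their median log2FC was -0.14. DESeq2 and edgeR's quasi-likelihood test each gave 9 lower and 0 higher, and without any one of the oe-AQP1 libraries 5 were lower. Without oe-NC 1 the 10 kept their call by limma-voom and most of the other genes of this list were lower too, against 20.7% of all genes. The lowest was Eef1a1, which delivers aminoacyl-tRNA to the ribosome, at 5087, 5100 and 5045 CPM in oe-AQP1 and at 6396, 6517 and 6500 CPM in oe-NC (log2FC -0.35 ± 0.02, FDR = 1.73e-06). The groups were far apart, and oe-NC 1 lay with the other controls. Of 14 genes of RNA polymerase I and its factors, which transcribe the rRNA precursor, 2 were higher and none lower by limma-voom, DESeq2 and edgeR alike. Taf1d, a factor for promoter recognition, was the highest (log2FC 0.30 ± 0.05, FDR = 0.00148), and the count was 4 without oe-NC 1 or oe-NC 3 and 1 without oe-AQP1 3. It was also 4 with sample quality weights, with library size only and with at least 10 counts in every sample, and 5 among protein-coding genes only. Of 41 ribosome biogenesis factors 11 were higher and 4 lower with a median log2FC of 0.04. The higher ones numbered 7 by DESeq2 and 5 with no filter on low counts. They numbered 17 without oe-NC 1, 6 without oe-NC 2 and 5, 4 and 5 without oe-AQP1 1, 2 and 3, and the lower ones 2 without oe-AQP1 2 or oe-AQP1 3. Without oe-NC 1 the 4 lower factors kept their call, and further factors were lower too. Wdr43, a factor of the small subunit processome, had the largest increase (log2FC 0.36 ± 0.05, FDR = 0.000271) and Utp20, of the same complex, the largest decrease (log2FC -0.35 ± 0.04, FDR = 4.2e-05). Of 6 chaperones that escort single ribosomal proteins, 1 was higher: Pdcd2, which escorts Rps2 (log2FC 0.18 ± 0.06, FDR = 0.0462). No chaperone was higher by DESeq2, with the replicate block, with no filter on low counts, or without oe-AQP1 2, oe-AQP1 3, oe-NC 2 or oe-NC 3. There were 3 higher chaperones without oe-NC 1, with sample quality weights, with library size only, with at least 10 counts in every sample and among protein-coding genes only.

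Of 15 genes of mTORC1 and of TOP mRNA control, 3 were higher and 4 lower. Larp1, the TOP tract-binding protein, was at 240, 239 and 235 CPM in oe-AQP1 and at 198, 173 and 178 CPM in oe-NC (log2FC 0.38 ± 0.05, FDR = 0.000264). Deptor, an mTOR inhibitor, was at 16.3, 14.9 and 16.6 CPM against 21.9, 23.7 and 22.6 CPM (log2FC -0.51 ± 0.07, FDR = 0.000361). Both were separate between groups. These are mRNA levels, and no value here measures translation, kinase activity or ribosome number.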

How the data were processed

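RNA of 6 RENCA samples was sequenced, 3 oe-AQP1 and 3 oe-NC. The authors deposited expected counts per gene, not scaled between samples, in 1 table for the whole series, with 2 columns of group means that were not used. The submitters' processing notes name fastp, HISAT2, featureCounts and Subread without versions, and the builds GRCm38 and mm10, whereas the study's methods name GRCm39; the table has no coordinates. Positions are from GENCODE M39 (GRCm39), which held 78168 of the 78298 gene identifiers. Members and gene lists were chosen with earlier results of these data known.

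Expected counts were rounded, genes were kept by filterByExpr with the group (15522 genes), and limma-voom 3.58.1 with TMM factors from edgeR 4.0.16 (R 4.3.3) and Benjamini-Hochberg FDR over all of them gave the calls, as in the study's methods; the script was tested on simulated data. DESeq2 1.42.0, edgeR's quasi-likelihood test, other scalings, filters, sample weights, a replicate block and leaving out each library were alternatives, and leaving out each library with copies summed was added after the data had been seen. Copies were found with BLAST+ 2.17.0 from the coding sequence of each member's shortest CCDS transcript. CPM values use TMM factors. Single values were compared by an exact two-sided permutation test. Genes described sample by sample were the 5 largest increases and decreases at FDR < 0.05 with at least 10 counts in each group on average, the 3 highest and lowest per kilobase, paralog pairs, the P stalk, Rpl5 and Rpl11; of the other lists, the highest and lowest called gene. Genes given beyond these (Rpl13, Rpl14, Rpl4, Rps9, Rpl7a, Rps12 and single copies) were chosen after their values were seen. Values of 2 genes that the rule or lists hold are not reported here. Libraries held 18385714 to 21920899 counts.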

Additional observations from a re-analysis of the deposited data

How the results depend on the processing

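No member was past both DEG thresholds under any alternative, and the median log2FC of the members ranged from -0.09 to 0.04 when 1 library was left out. Leaving out 1 library gave 2 to 9 higher and 5 to 45 lower members, a share difference (oe-AQP1 minus oe-NC) from -0.188 to 0.0818 percentage points and a log2 small to large difference from -0.000166 to 0.0223. With sample quality weights 30 members were lower. With copies summed, leaving out 1 library gave 2 to 9 higher and 7 to 54 lower members, and of 24 values for the 4 genes newly called with copies 14 lost the call. In the summed fit without oe-NC 1, 19.5% of all genes were higher and 21.3% lower. For the summed fits without another library these percentages are not given here. The share difference was -0.0223 percentage points with all counts and 0.15 of counts without DEGs. The log2FC of Rps2 was 0.01 and of Rps27l -0.05 with sample quality weights, and that of Rpl12 was -0.01 with copies summed. Leaving out 1 library gave ranges that cross 0 for Rps2 (-0.09 to 0.01), Rpl22 (-0.03 to 0.12), Rps27l (-0.09 to 0.15), Rplp2 (-0.04 to 0.16), Rps27 (-0.12 to 0.04), Rpl39 (-0.15 to 0.07), Rplp1 (-0.14 to 0.05), Rpl41 (-0.14 to 0.06) and Rpl11 (-0.15 to 0.02). For Rpl5, at 0.00 with all libraries, the range was -0.04 to 0.03. The cause of these changes was not tested. Of 494 single-gene values under alternatives 441 kept direction (read at 2 decimals) and side of the threshold, 19 lost the call, 16 gained one and 18 changed sign; of 266 list counts 42 moved by over 1.5 times. Same-numbered replicates did not deviate together (r = 0.009, -0.004 and -0.068). This check can miss a shared handling, since the oe-AQP1 libraries differed little (mean chi-square of 1.71 to 2.04 per gene). The fit with the replicate block gave 5 higher and 9 lower members, with the percentages of all genes not given here. Its share difference was -0.0223 and its log2 ratio difference 0.0127. Among the members tested Rpl3l had the fewest counts, at most 65 in a library, and Rps4l, Rpl10l and Rpl39l had too few to test.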
